A study of Homo sapiens with 6 samples.

Results

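LINC genes are long intergenic noncoding RNA genes that carry only a serial number as a name. The LINC RNAs that LX-2 cells express were described here across 3 libraries of cells given transforming growth factor beta 1 (TGF-β1) and 3 control libraries. Members were chosen by name and by mean count: they are the rows whose gene name is LINC followed by digits only and whose count averaged at least 10 over the 6 libraries. The rule gave 153 members among 27830 genes in the table and among 881 rows with such a name. The measured value used was the count level over all 6 libraries, not the difference between groups. They carry 152 symbols, because 2 gene identifiers on chromosome 8 share the name LINC01605.

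LX-2 is an established human hepatic stellate cell line. Cells of both groups were grown in medium with 10% serum. In the TGF-β1 group, cells received 10 ng/ml TGF-β1 for 24 h, and the labels place that treatment in medium without serum. The other group is labelled only as control, and its medium at that stage is not stated, so TGF-β1 and a difference in serum cannot be told apart. No genetic change is named for either group. Whether the 3 libraries of each group came from different cultures is not stated, so the p-values reflect the spread among these libraries alone, and that spread may be technical.

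Long intergenic noncoding RNAs are transcribed by RNA polymerase II, mostly spliced and polyadenylated like messenger RNAs, and are as a class present at lower levels and in fewer cell types than messenger RNAs. A few act as scaffolds or decoys for proteins or microRNAs, some affect a gene next to them, a few turned out to encode small proteins, and most have no known function. TGF-β1 binds a receptor pair that phosphorylates SMAD proteins, which act on promoters and enhancers together with other factors such as AP-1. In stellate cells it drives the change to a matrix-producing myofibroblast.

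Library totals ran from 13866957 to 17694675 counts, and a count of 3 corresponded to 0.170 to 0.216 CPM (counts scaled to a common library size), which covers counting error only. Among the known TGF-β1 responses, FN1 (fibronectin) rose to 3558 ± 184 CPM with TGF-β1, against 985 ± 68.9 CPM in controls (SD, n = 3 each; edgeR adjusted p = 5.11e-05), whereas ACTA2 (smooth muscle actin) had 4.77 ± 1.35 and 5 ± 0.338 CPM (edgeR adjusted p = 0.898). TGFBI (log2 difference 1.74) and PMEPA1 (1.27) rose as well, with edgeR adjusted p-values of 7.7e-05 and 0.0314. Mesenchymal genes such as COL1A1 and VIM were abundant, but COL1A2 had only 2.89 CPM with TGF-β1 and 2.22 CPM in controls. DES had 1 to 5 counts per library, and the epithelial gene EPCAM had 0 or 1. None of the listed marker genes of other cell types was called. Summed over each list, endothelial markers had 419 to 450 CPM with TGF-β1 and 437 to 465 CPM in controls, and epithelial markers 416 to 604 and 540 to 683 CPM. Leukocyte markers had 25.2 to 29.3 and 28.7 to 37.1 CPM, and hepatocyte markers 30.7 to 44.7 and 21.9 to 30.9 CPM. Within these lists, CDH5 (0 to 4), KRT19 (0 to 2), and APOA1 and APOB (0 or 1) were at or near 0 counts. Other listed genes were not, with mean counts of 4842 for TIE1 and 2089 for FLT1 (endothelial). KRT8 and KRT18 (epithelial) averaged 5665 and 3171 counts, CPS1 (hepatocyte) 493, and CD14 and ITGAX (leukocyte) 205 and 178. The part of these genes in the results was not tested. In bulk RNA, fewer cells of a kind and less RNA per cell cannot be told apart. Libraries of a group differed by more than counting noise (chi-square per degree of freedom from 5.21 to 45.7), and none was treated as a duplicate.

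The name was checked against the GENCODE release 29 annotation. It types 123 members as lincRNA, 11 as processed transcripts, 5 as antisense, 7 as kinds of pseudogene and 2, LINC02693 and LINC00672, as protein coding. The remaining 5 are typed as other kinds of long noncoding RNA. The bodies of 20 members overlap a protein-coding gene, so the word intergenic did not hold for all of them. Exons of 94 members overlap no exon of another gene, and 48 members overlap an exon on the opposite strand. The library kit does not mark strand, so in the shared bases reads of those 48 and of their partners cannot be told apart. Among all members, 1 had more than 50% of its exon bases overlapped by other genes. Counts of the 7 members typed as pseudogenes are uncertain where reads also match a parent gene.

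Most members were present at low levels. The mean count ran from 10.2 to 1112 with a median of 35.7, and 70 members averaged under 30 counts. The nearest members inside the threshold were LINC02846 and LINC00847, both at a mean count of 10.2, and LINC00640 at 10.3. The nearest rows outside it were LINC00324 at 9.83 and LINC01569 and LINC02585 at 9.67. Per length, the members had a median of 0.594 FPKM (fragments per kilobase of gene, scaled to library depth), with a range of 0.0554 to 12 FPKM, and 57 exceeded 1 FPKM. Protein-coding genes under the same count threshold had a median of 5.42 FPKM. All 153 members had a count in every library. Their summed counts took 0.0860%, 0.0787% and 0.0790% of the total with TGF-β1 (replicates 1, 2 and 3), against 0.0776%, 0.0743% and 0.0793% in controls. The groups overlapped, with means of 0.0812% ± 0.00415 and 0.0771% ± 0.00254 (SD, n = 3 each).

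No LINC member passed the test for a difference between TGF-β1 and control cells. Counts were tested with edgeR's quasi-likelihood test over 14463 genes with Benjamini-Hochberg adjustment over all of them. Of the members, 152 passed its filter on low counts, and 0 of them reached an adjusted p under 0.05, where 0.366% of all genes did (0.187% higher and 0.18% lower). LINC00640 was left out by the filter, with 8, 19 and 15 counts with TGF-β1 and 7, 7 and 6 in controls. At an unadjusted p under 0.05 there were 21 members, 15 higher and 6 lower with TGF-β1. That is 13.8% of the tested members, against 15.6% of all tested genes (11.1% higher and 4.49% lower), so the members' share is near the background. The limma voom test also called 0 members, where it called 0.38% of all genes. DESeq2 called 4, where it called 4.25% of all genes. The smallest adjusted p among members was 0.0807, for LINC00973.

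**Figure D1:**
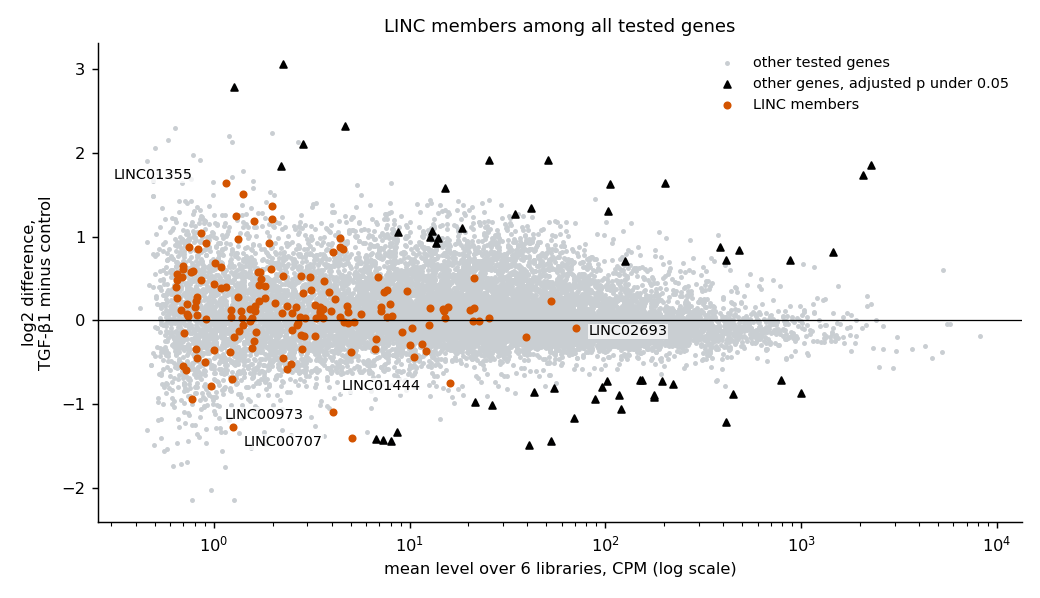
Log2 difference between TGF-β1 and control cells (vertical axis) against the mean level in CPM on a log scale (horizontal axis) for 14463 tested genes. LINC members (orange) lie mostly at the low end, and none of the 53 genes called by edgeR (triangles) is a member.

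What the counts could show differed between members. The 95% interval of the log2 difference lay within -1 and 1 for 80 of the 152 tested members, so for these a 2-fold change in either direction is outside the interval. For the others the interval reached past a 2-fold change on at least 1 side. The median standard error was 0.31 on the log2 scale for members and 0.19 over all tested genes, and the median of edgeR's biological coefficient of variation was 0.193 and 0.165.

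**Figure D2:**
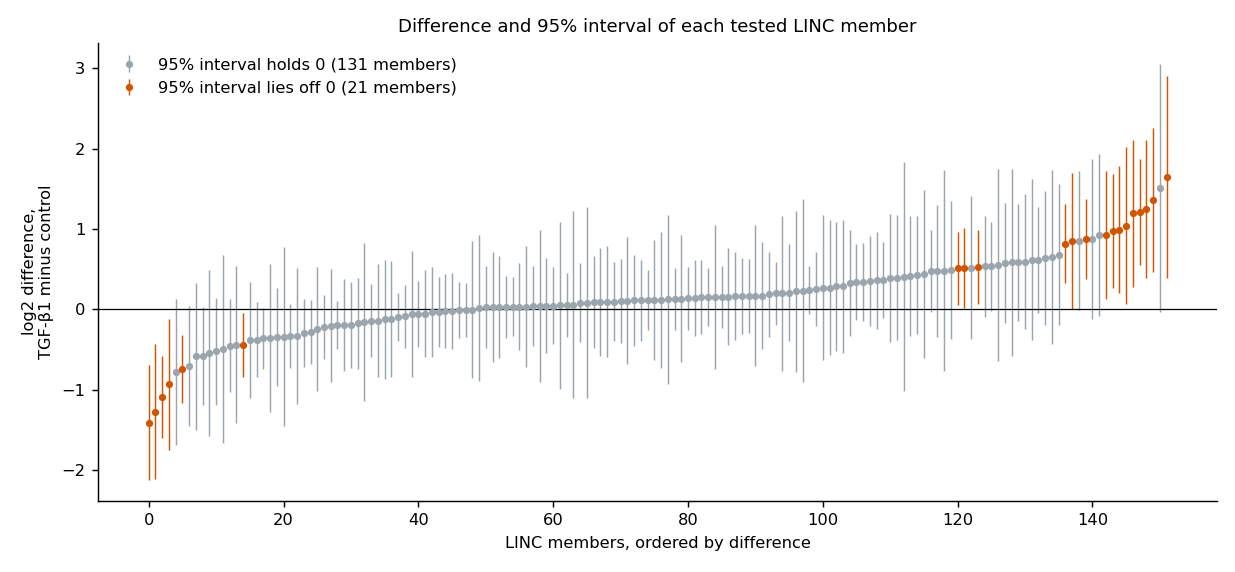
Log2 difference with its 95% interval (vertical axis) for the 152 tested LINC members in order of difference (horizontal axis). The interval lies off 0 in 21 members, drawn in orange, and no member passed adjustment over all genes.

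Across members, log2 differences ran from -1.41 to 1.65. Their median was 0.12, against 0.01 over all genes tested, and 103 of 152 lay above 0 (67.8%), against 51.0% of all genes tested. The CPM values of the groups did not overlap for 32 tested members, 17 with all TGF-β1 libraries above the controls and 15 with all below. That is 21.1% of the members, against 17.1% of all tested genes (7.93% above and 9.12% below). Differences of at least 1 on the log2 scale occurred in 7 members upward and 3 downward, where they occurred in 2.46% and 0.608% of all tested genes.

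The members with the most negative differences were LINC00707, LINC01411 and LINC00973. LINC00707, an RNA studied mainly in carcinomas, had 70, 24 and 36 counts with TGF-β1, against 108, 109 and 134 in controls (in the order of replicates 1, 2 and 3, as throughout). All TGF-β1 libraries lay below all controls, with replicate 1 the highest of the 3. The levels were 2.77 ± 1.42 and 7.39 ± 0.933 CPM (SD, n = 3 each), a log2 difference of -1.41 ± 0.32 (SE; edgeR adjusted p = 0.105). LINC00707 spans 6779549 to 6879450 on chromosome 10 (plus strand), and 16.6% of its exon bases overlap other noncoding genes.

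LINC00973 had 53, 43 and 27 counts with TGF-β1, against 79, 98 and 88 in controls. The 3 controls lay close together and all TGF-β1 libraries lay below them. Levels were 2.59 ± 0.617 and 5.55 ± 0.176 CPM, a log2 difference of -1.09 ± 0.23 (SE; edgeR adjusted p = 0.0807). The 95% interval ran from -1.60 to -0.58. LINC00973 lies on chromosome 3 from 98981058 to 98983096 (plus strand), and no exon base overlaps another gene.

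LINC01444 was both the member with the highest level per length, at 12 FPKM, and among those with the most negative differences. It had 212, 155 and 191 counts with TGF-β1, against 301, 318 and 337 in controls. The groups did not overlap, and levels were 12 ± 2.54 and 20.1 ± 1.42 CPM, a log2 difference of -0.74 ± 0.19 (SE; edgeR adjusted p = 0.133). It lies on chromosome 18 from 14969001 to 14970468 (minus strand), with no exon overlap.

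The others of this kind had few counts. LINC01411 had 15, 7 and 12 counts with TGF-β1 and 24, 39 and 22 in controls, a log2 difference of -1.27 ± 0.39 (SE; edgeR adjusted p = 0.166). LINC00513 had 10, 8 and 7 counts with TGF-β1 and 13, 20 and 16 in controls (log2 difference -0.93 ± 0.37, edgeR adjusted p = 0.258). In both, the groups did not overlap in CPM. LINC02321 (log2 difference -0.70), LINC01011 (-0.78) and LINC01303 (-0.59) had edgeR adjusted p-values of 0.345, 0.391 and 0.532. Of the exon bases of LINC01011, 20.7% overlap other genes, among them NQO2.

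The members with the most positive differences were LINC01355, LINC02802 and LINC00641, and their libraries were uneven. LINC01355 had 43, 31 and 10 counts with TGF-β1, against 16, 5 and 5 in controls, a log2 difference of 1.65 ± 0.57 (SE; edgeR adjusted p = 0.21), and the groups overlapped. Without control replicate 1 the log2 difference was 2.52. LINC02802 had 19, 15 and 59 counts with TGF-β1, against 1, 17 and 17 in controls, so that TGF-β1 replicate 3 and control replicate 1 set its log2 difference of 1.51 ± 0.70 (SE; edgeR adjusted p = 0.328). Leaving out TGF-β1 replicate 3 gave 0.49, and leaving out control replicate 1 gave 1.03. LINC00641 had 75, 40 and 23 counts with TGF-β1, against 10, 25 and 19 in controls. Its groups did not overlap in CPM, and the log2 difference was 1.36 ± 0.41 (SE; edgeR adjusted p = 0.166).

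LINC02035, LINC01232 and LINC01583 had more even libraries. LINC02035 had 48, 51 and 33 counts with TGF-β1, against 11, 23 and 24 in controls, which gave 2.79 ± 0.318 and 1.19 ± 0.365 CPM, a log2 difference of 1.21 ± 0.30 (SE; edgeR adjusted p = 0.123). LINC01232 had 97, 82 and 86 counts with TGF-β1, against 49, 43 and 55 in controls, a log2 difference of 0.87 ± 0.23 (SE; edgeR adjusted p = 0.134). Other genes share 8% of the exon bases of LINC01232, among them the much more abundant coding gene TM9SF2 (254 and 239 CPM). LINC01583 had 94, 74 and 75 counts with TGF-β1, against 43, 43 and 54 in controls, a log2 difference of 0.82 ± 0.23 (SE; edgeR adjusted p = 0.146). In all 3 the groups did not overlap. LINC01232, LINC01583 and LINC01137, which is described with its neighbour, are outside the rule for named members and were chosen after their values were seen.

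**Figure D3:**
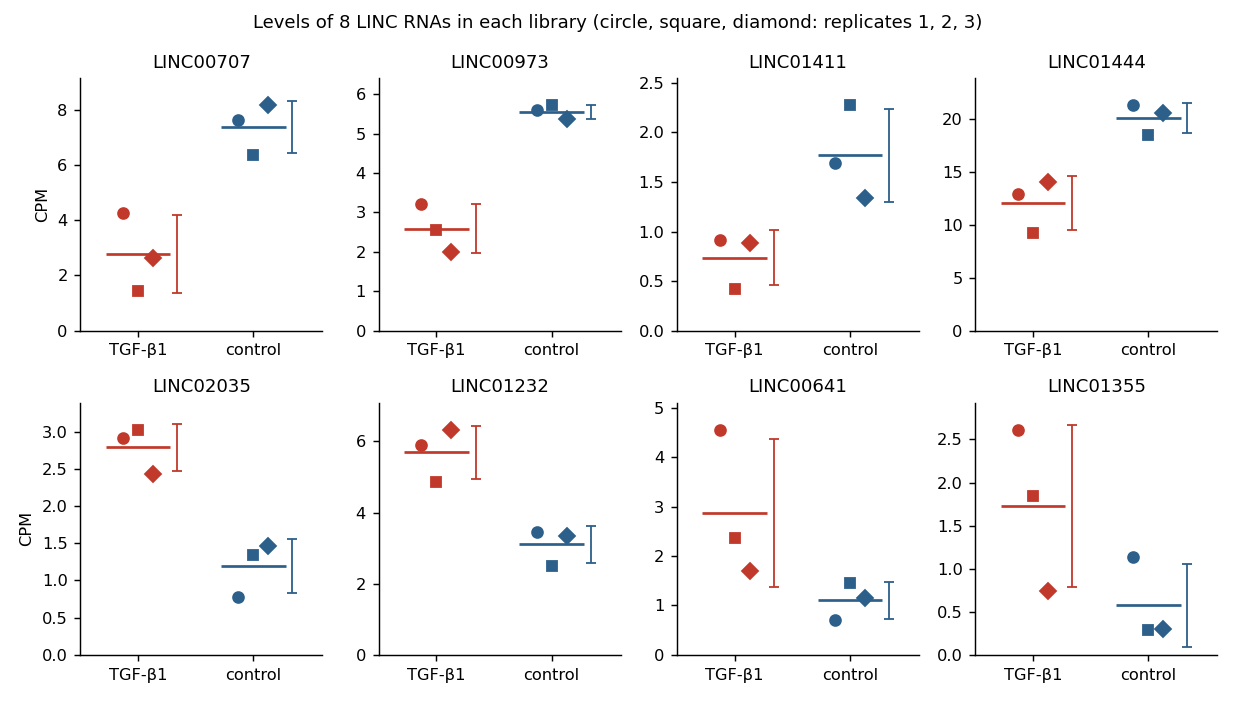
CPM (vertical axes, each from 0) of 8 LINC members in TGF-β1 libraries (red, left) and control libraries (blue, right), with group means as lines and SD as bars (n = 3 each). LINC00707, LINC00973, LINC01411 and LINC01444 have all TGF-β1 libraries below the controls, and of the 4 others LINC01355 alone has groups that overlap.

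LINC02084, LINC00632, LINC00342 and LINC01004 followed in size among the positive differences. LINC02084 lies 1944 bases from EOMES, a T-box transcription factor gene, and had 20, 38 and 28 counts with TGF-β1 against 6, 15 and 16 in controls (log2 difference 1.25 ± 0.39, edgeR adjusted p = 0.175). EOMES itself was at 0.374 and 0.202 CPM. LINC00632 is the host transcript of the circular RNA CDR1as, a microRNA-7 decoy in brain, and the gene counts do not separate linear from circular RNA. It had 23, 39 and 40 counts with TGF-β1 against 22, 9 and 14 in controls (log2 difference 1.19 ± 0.42, edgeR adjusted p = 0.21), and CDR1 shares 2.73% of the exon bases of LINC00632. LINC00342 had 143, 105 and 36 counts with TGF-β1 against 44, 45 and 52 in controls, with replicates 1 and 2 high and replicate 3 within the controls (log2 difference 0.99 ± 0.36, edgeR adjusted p = 0.222). LINC01004 had 21, 27 and 8 counts with TGF-β1 against 8, 7 and 12 in controls (log2 difference 1.04 ± 0.45, edgeR adjusted p = 0.287).

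The promoter windows of 5 of these members are shown, 3 with negative and 2 with positive differences, so that the letters can be read beside the values. Each window runs from 250 bases before to 50 after the start in RefSeq (GRCh38.p14), is written 5′ to 3′ on the gene's strand, and is the listed window nearest the GENCODE start. Capitals mark matches, on either strand, to the motifs searched, which were TGACTCA (bound by AP-1), CAGAC and GTCTAGAC (SMAD proteins), GGAATG (TEAD factors), TGACGTCA (the cyclic AMP response element) and CACGTG (the E-box). The windows are chr3:98980805-98981104 (plus strand) for LINC00973, chr5:174336104-174336403 (plus) for LINC01411, chr18:14970419-14970718 (minus) for LINC01444, chr3:122886263-122886562 (plus) for LINC02035 and chr13:99499257-99499556 (minus) for LINC01232.
LINC00973: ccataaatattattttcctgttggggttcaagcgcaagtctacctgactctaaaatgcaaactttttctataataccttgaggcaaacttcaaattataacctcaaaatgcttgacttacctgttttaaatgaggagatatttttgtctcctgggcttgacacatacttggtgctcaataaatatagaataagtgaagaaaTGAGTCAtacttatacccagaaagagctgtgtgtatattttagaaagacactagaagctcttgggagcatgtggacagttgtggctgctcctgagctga
LINC01411: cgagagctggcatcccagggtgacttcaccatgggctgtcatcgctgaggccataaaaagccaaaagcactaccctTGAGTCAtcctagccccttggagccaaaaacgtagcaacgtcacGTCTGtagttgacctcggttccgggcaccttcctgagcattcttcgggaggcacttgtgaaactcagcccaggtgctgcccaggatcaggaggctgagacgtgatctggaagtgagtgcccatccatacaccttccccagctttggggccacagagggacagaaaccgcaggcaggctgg
LINC01444: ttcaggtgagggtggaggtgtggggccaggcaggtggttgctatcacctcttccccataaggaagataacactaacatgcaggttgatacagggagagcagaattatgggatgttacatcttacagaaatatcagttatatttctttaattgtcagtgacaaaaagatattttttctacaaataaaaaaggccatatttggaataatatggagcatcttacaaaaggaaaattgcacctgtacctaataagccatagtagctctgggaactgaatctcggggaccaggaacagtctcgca
LINC02035: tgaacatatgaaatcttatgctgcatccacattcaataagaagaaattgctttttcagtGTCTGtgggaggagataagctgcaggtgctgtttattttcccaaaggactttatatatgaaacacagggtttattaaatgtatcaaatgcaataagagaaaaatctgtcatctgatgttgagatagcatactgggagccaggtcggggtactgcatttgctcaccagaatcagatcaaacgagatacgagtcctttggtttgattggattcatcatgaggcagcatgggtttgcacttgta
LINC01232: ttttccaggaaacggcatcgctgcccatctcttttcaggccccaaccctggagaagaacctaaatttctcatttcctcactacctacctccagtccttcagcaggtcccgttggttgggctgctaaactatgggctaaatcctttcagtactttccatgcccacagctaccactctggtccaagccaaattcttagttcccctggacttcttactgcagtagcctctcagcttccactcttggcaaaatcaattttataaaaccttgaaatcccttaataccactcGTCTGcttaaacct

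The windows of LINC00973 and LINC01411, both with negative differences, hold the AP-1 letters, read as TGAGTCA, 49 and 174 bases before the start. LINC01411 also holds CAGAC, read as GTCTG, 130 bases before the start. LINC02035 and LINC01232 hold CAGAC, read as GTCTG, 191 bases before and 36 after the start. No searched motif is in the window of LINC01444. The window of LINC02035 has its start 428 bases from the GENCODE start, whereas the distance is 0 to 59 bases for the other 4.

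Windows were found for 112 of the 153 members. TGACTCA was in 17 of them (15.2%), against 4.92% of 27305 windows, the first listed for each gene symbol. On first listed windows, which also gave 17 of 112 for the members, it was in 10.5% of 466 windows of LINC rows below the count threshold, 5.03% of 378 windows of other long noncoding RNAs at the same threshold and 3.04% of 10121 windows of coding genes at the threshold. The windows differ in base composition, with a median GC content of 54.8% for members, 49.3% for the LINC rows below the threshold and 65.3% for the coding genes. The 17 members include LINC00963, LINC01615, LINC00460 and LINC01094 besides LINC00973 and LINC01411. Their median log2 difference was 0.12, and 13 of the 17 lay above 0. In the 94 tested members whose window lacks the letters the median was 0.13, and 62 lay above 0. On the same windows CAGAC was in 40.2% of the members and 45.0% of all, and TGACGTCA in 1.79% and 1.98%. GGAATG was in 11.6% and 14%, CACGTG in 5.36% and 7.43%, and GTCTAGAC in 0 of the members and 0.201% of all.

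Members with the highest levels per length showed small differences, apart from LINC01444. LINC01436, whose start lies 671 bases from that of RUNX1 on the opposite strand, had 9.77 FPKM, with 9.94 ± 0.921 CPM with TGF-β1 and 10.6 ± 0.866 CPM in controls. RUNX1, a transcription factor gene, had 164 and 155 CPM. LINC00674 (9.69 FPKM), LINC02381 (9.16 FPKM), LINC00888 (6.95 FPKM), LINC00205 (6.91 FPKM), LINC01605 (5.99 FPKM, the higher of its 2 identifiers) and LINC02057 (5.32 FPKM) completed this set. Their log2 differences were 0.11, -0.19, 0.14, 0.24, -0.14 and 0.20, with edgeR adjusted p-values from 0.435 to 0.865. The intervals of all of these lay within -1 and 1. In LINC00205, LINC02057 and LINC02381 the groups did not overlap, with 57.0 ± 5.71 and 48.4 ± 1.26, 8.47 ± 0.524 and 7.38 ± 0.268, and 36.7 ± 2.10 and 41.9 ± 1.10 CPM. LINC00888 holds snoRNA genes within its body. The most abundant member by counts was LINC02693, with 68.4 ± 9.23 and 73.0 ± 0.962 CPM (edgeR adjusted p = 0.778).

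LINC RNAs often studied in cancer or signalling were taken as a list chosen with earlier results of these data known. Of these, 8 are members, LINC00707 among them. LINC00511, which binds the histone methyltransferase EZH2 in cancer cells, had 4.61 ± 0.712 CPM with TGF-β1 and 4.67 ± 0.0658 CPM in controls (log2 difference -0.02, 95% interval -0.48 to 0.44, edgeR adjusted p = 0.97). LINC00460 had 3.63 ± 0.432 and 3.57 ± 1.29 CPM (edgeR adjusted p = 0.972), and LINC00963 had 22.4 ± 2.46 and 20.1 ± 2.13 CPM (edgeR adjusted p = 0.692). LINC01116, which lies beyond the HOXD cluster, had 8.63 ± 1.22 and 6.70 ± 1.42 CPM (edgeR adjusted p = 0.446), and LINC00662 had 8.25 ± 0.309 and 6.51 ± 1.54 CPM (edgeR adjusted p = 0.476). In both, the groups did not overlap. LINC01638 had 1.29 ± 0.416 and 1.40 ± 0.155 CPM (edgeR adjusted p = 0.886).

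LINC00472 holds the microRNA genes MIR30A and MIR30C2 within its body, and in the heart the miR-30 family is known to target the mRNA of connective tissue growth factor. It had 220, 199 and 101 counts with TGF-β1, against 111, 116 and 180 in controls (log2 difference 0.35 ± 0.26, edgeR adjusted p = 0.54). The groups overlapped, since TGF-β1 replicate 3 lay at the level of the lower controls. LINC00467, from a list of RNAs known to encode small proteins, has been described to encode a mitochondrial peptide. It had 29, 34 and 26 counts with TGF-β1, against 41, 61 and 34 in controls (log2 difference -0.58 ± 0.28, edgeR adjusted p = 0.335), and its groups did not overlap in CPM. LINC01614 and LINC01705 had 0 or 1 count per library, and LINC01503 0 to 9.

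Members were set beside the nearest protein-coding gene. The gap was a median of 32831 bases for members that overlap none. Of 119 pairs in which both genes were tested, none of the coding genes was called. Over all tested coding genes at the count threshold, 52 of 12479 were. In 65 pairs the differences had the same sign, and no count over other gene pairs was made to set beside it. Spearman's rho between the log2 differences was 0.10 over the 119 pairs and 0.17 over the 46 pairs within 10 kb, given as a description, since the pairs share all 6 libraries. In 12 members the start lay within 1 kb of an opposite-strand coding gene's start, at 97 to 671 bases. LINC01137, 141 bases from ZC3H12A, an RNase gene of inflammation, had a log2 difference of 0.52 ± 0.21 (SE), and ZC3H12A one of -0.17 ± 0.14. LINC00973 has DCBLD2, a membrane receptor gene, 79369 bases away, with 692 and 521 CPM and a log2 difference of 0.41 ± 0.23 (SE; edgeR adjusted p = 0.411), opposite in sign to LINC00973. The other neighbours were also uncalled, with HNRNPC (528 and 551 CPM) beside LINC00641 and HNRNPR (157 and 128 CPM) beside LINC01355.

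Levels depended on GC content differently in each library. Where at most 40% of the bases in a gene's transcripts were G or C, the median log2 deviation from the gene mean was 0.66, 0.22 and -0.19 with TGF-β1, against -0.10, -0.43 and -0.12 in controls. For LINC members these medians were 0.11, 0.03 and 0.02, against -0.05, -0.07 and 0.00. Spearman's rho between GC content and the log2 difference was -0.18 over the 152 tested members and -0.54 over 14375 genes, as a description over genes that share libraries. The part of this trend in single members was not tested, but values with the trend removed from each library are given beside them. LINC01355, with a GC content of 36.3%, then had a log2 difference of 1.04, LINC00641 (40.9%) 0.95 and LINC00342 (42.4%) 0.69, each nearer 0 than before. LINC00973, with 37.7%, had -1.63 and was farther from 0.

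**Figure D4:**
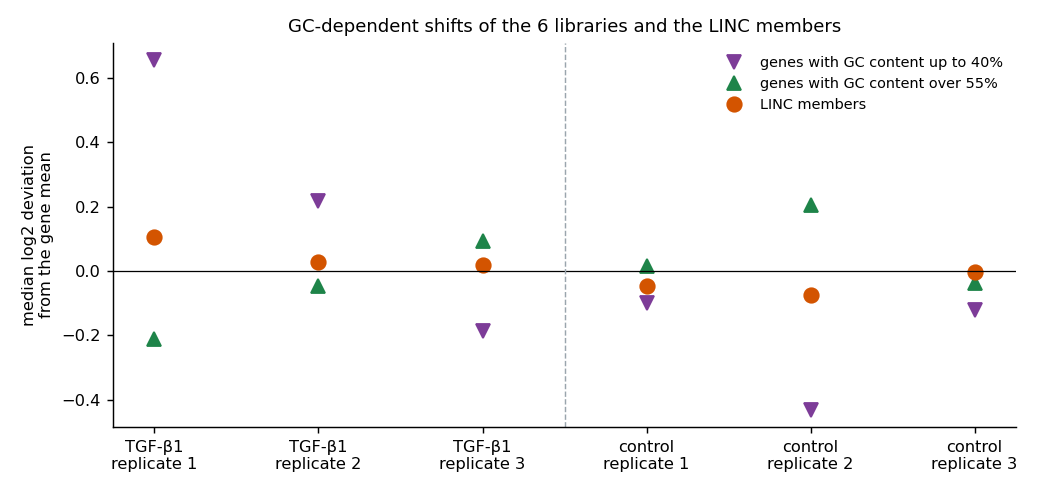
Median log2 deviation from the gene mean (vertical axis) in the 3 TGF-β1 and 3 control libraries for genes with low GC content (1440 genes), high GC content (4468 genes) and the LINC members. The low-GC medians run from 0.66 in TGF-β1 replicate 1 to -0.43 in control replicate 2, and the members' medians stay between -0.07 and 0.11.

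The absence of calls among members depended on the settings. With the GC trend removed, edgeR called LINC00707 (log2 difference -1.56, adjusted p = 0.00406), LINC00973 (adjusted p = 0.000617), LINC01444 (-0.73, adjusted p = 0.0167) and LINC01137 (0.63, adjusted p = 0.0483), where 3.68% of all genes were called. DESeq2 called LINC00707, LINC00973 and LINC01444 as lower and LINC02035 as higher. Without TGF-β1 replicate 3 edgeR called 7 members, LINC00707, LINC00973 and LINC01444 as lower and LINC02035, LINC00342, LINC00641 and LINC01355 as higher, where 11.2% of all genes were called. Without TGF-β1 replicate 1 it called 5 members, where 2.2% of all genes were called, and without any other single library 0. The background was then 0.0271% with TGF-β1 replicate 2 left out. With control replicate 1, 2 or 3 left out it was 0.0875%, 0.25% or 0.101%. With no filter 13 members were called, where 4.46% of all genes were, and with upper quartile factors LINC00707 and LINC00973, where 0.767% were. RLE factors, total counts only and the filter of 1 CPM in 3 samples gave 0 members and 0.436%, 0.325% and 0.39% of all genes. Over 14 alternatives, leaving aside the fits with a block on the replicate number, LINC00707 and LINC00973 were called in 6, LINC01444 in 5 and LINC02035 in 3. The log2 differences of these 4 kept their sign in all 14, but these fits reuse the same libraries and so give no independent support.

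**Figure D5:**
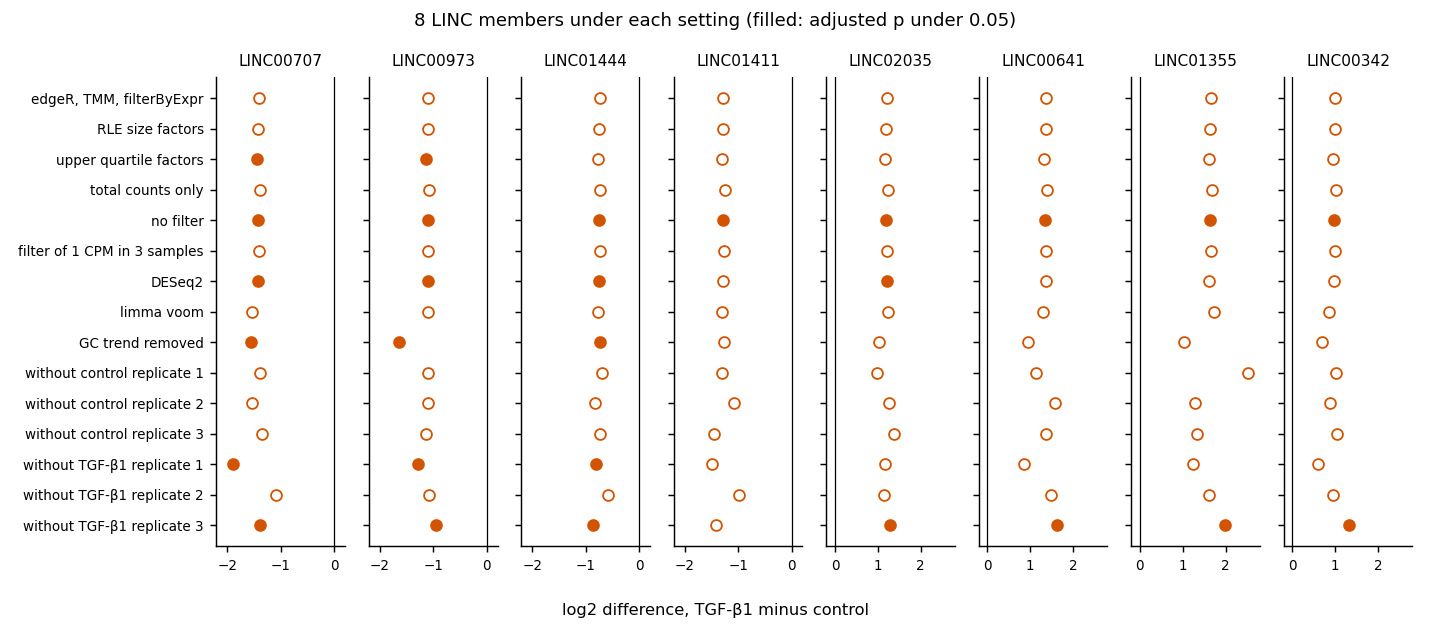
Log2 difference between TGF-β1 and control cells (horizontal axes) of 8 LINC members under the first fit and 14 alternatives (rows), with filled points where the adjusted p was under 0.05. No point crosses 0, and LINC00707 and LINC00973 are filled in 6 rows each. All rows reuse the same libraries.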

How the data were processed

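RNA of 6 LX-2 samples (3 TGF-β1, 3 control) was sequenced. The labels' protocols name Trizol for extraction and an NEBNext Ultra kit for the libraries. The submitters' processing notes name HISAT2, HTSeq 0.13.5 and GRCh38 without saying what each was used for, and the release of the annotation is not stated there. The deposited table holds raw read counts and the authors' FPKM values, per the file headers. FPKM values follow from the deposited counts with 1 whole gene length in all 6 libraries for 27830 genes (tolerance 0.01 bases), and served only to compare levels between genes.

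Counts were tested with edgeR 4.0.16 (R 4.3.3; quasi-likelihood F test, robust fit, TMM, filterByExpr), with Benjamini-Hochberg adjustment over 14463 genes and calls at adjusted p under 0.05. CPM of single genes are on TMM-scaled library sizes. The test was checked on simulated data, which held no GC-dependent shifts between libraries. Alternatives were other scaling factors, no filter, a filter of 1 CPM in 3 samples, DESeq2 1.42.0, limma 3.58.1 voom, the replicate number as a block, a loess trend on transcript GC content removed per library (span 0.5), and each sample left out. GENCODE release 29 (GRCh38) matched 26980 genes and left 850 unmatched, and RefSeq gave promoter windows.

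Named members were the 8 with the highest FPKM, the 8 largest and 8 most negative log2 differences, any called member and those on 3 lists of studied or peptide-coding LINC RNAs, 31 in all. The members and lists were chosen with earlier results of these data known.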

Additional observations from a re-analysis of the deposited data

How the results depend on the processing

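The number of genes called was 53, against 111 with upper quartile factors, 1240 with no filter, 615 with DESeq2, 532 with the GC trend removed and 4 to 1671 without 1 sample. Members called numbered 0, against 2 with upper quartile factors (0 higher, 2 lower), 13 with no filter (9 higher, 4 lower), 4 with DESeq2 (1 higher, 3 lower) and 4 with the GC trend removed (1 higher, 3 lower). The shares of all genes called higher and lower were 0.394% and 0.373% with upper quartile factors, 3.85% and 0.607% with no filter, 3.41% and 0.844% with DESeq2, and 1.87% and 1.8% with the GC trend removed. Without 1 sample the members called numbered 0 to 7 (0 to 4 higher, 0 to 3 lower). With RLE factors, total counts only, the filter of 1 CPM or limma voom, 0 members were called. Members at an unadjusted p under 0.05 numbered 13 among the 83 with a mean count of at least 30, which is a smaller list, and 15 to 22 without 1 sample. Over all tested genes the share at that level was 15.6% in the first fit, and it was not computed without 1 sample. The members' median log2 difference was 0.09 to 0.15 without 1 sample and 0.08 with the GC trend removed. No cause of these differences was tested.

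With a block on the replicate number there were 527 calls and 6 members (3 higher, 3 lower), where 2.97% of all genes were called higher and 0.678% lower, and with the GC trend removed 530 calls and 3 members (3 lower), where 1.85% and 1.81% were. LINC00707, LINC00973 and LINC01444 were called in both of these fits. The correlations between the deviations of equally numbered samples were 0.18, 0.10 and -0.35. With the GC trend removed they were -0.012, 0.085 and -0.17. Whether equal numbers mark paired samples is not stated, and so few correlations cannot decide it.

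Signs changed in members near 0 that were never called. With the GC trend removed, and with the block as well, log2 differences were -0.046 and -0.021 for LINC00674, -0.00062 and -0.017 for LINC00888, -0.12 and -0.11 for LINC02057, 0.012 and 0.0072 for LINC00511, and -0.071 and -0.045 for LINC00460. LINC00511 was at 0.0012 with total counts and LINC00460 at -0.0037 with upper quartile factors. Without 1 sample, ranges were -0.084 to 0.30 for LINC00674, -0.12 to 0.10 for LINC00511 and -0.26 to 0.18 for LINC00460. They were -0.27 to 0.052 for the LINC01605 identifier with the higher FPKM and -0.35 to 0.12 for LINC01638. Of the members, 70 averaged under 30 counts, and 80 of 152 intervals lay within -1 and 1.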

Other observations

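Several RNAs first named LINC now carry other symbols and so fall outside the members. NORAD, which binds PUMILIO proteins, had 8461, 6183 and 3564 counts with TGF-β1, against 4353, 4433 and 5218 in controls (log2 difference 0.37 ± 0.21, edgeR adjusted p = 0.416). CYTOR had 22.5 ± 2.02 CPM with TGF-β1 and 21.0 ± 2.60 CPM in controls, and CHASERR, which lies beside CHD2, had 22.6 ± 4.54 and 21.0 ± 3.17 CPM (SD, n = 3 each). NBDY, which encodes a microprotein of the mRNA decapping complex, had 46.2 ± 2.83 and 49.4 ± 2.16 CPM, and MTLN, which encodes a mitochondrial microprotein, had 17.9 ± 1.74 and 19.4 ± 1.16 CPM. SMIM26 had 49, 37 and 57 counts with TGF-β1, against 65, 96 and 69 in controls (log2 difference -0.63 ± 0.27, edgeR adjusted p = 0.276). SMIM30 had 26.5 ± 2.43 and 26.1 ± 2.45 CPM, LINC-PINT 2.63 ± 0.226 and 3.08 ± 0.408 CPM, and SPAAR 1 to 3 counts per library. None of those tested was called by edgeR.

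Other long noncoding RNAs were taken at the same count threshold. Among 270 tested antisense RNAs 0 were called and 23 (8.52%) had an unadjusted p under 0.05, and among 21 snoRNA host genes the numbers were 0 and 2 (9.52%). Among 26 microRNA host genes they were 0 and 7 (26.9%). Over all tested genes, edgeR called 0.366%, and 15.6% had an unadjusted p under 0.05. Of 1039 tested genes typed as long noncoding RNA and not named LINC, 1 was called, a decrease. In this class 111 (10.7%) had an unadjusted p under 0.05. Genes of the classes named before were not taken out of it, so the classes can overlap. Median log2 differences were 0.04, 0.02, 0.17 and 0.06 in these 4 classes.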
